A study of Mus musculus with 4 samples.

Results

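The colony-stimulating factor (CSF) system of the peritoneal exudate is described here through 6 genes: the receptors Csf3r, Csf1r, Csf2ra, Csf2rb and Csf2rb2, and the ligand Csf1. Members were the probe sets of 2 array types, here called A and B, whose platform annotation gave exactly 1 gene symbol equal to one of these names. This found 5 probe sets for 5 of the 6 genes, out of 13069 probe sets and 6137 named genes in all. No probe set carried Csf2rb as its only symbol, so Csf2rb has no value of its own. A probe set annotated to Csf2rb2 and Csf2rb together is given below as the reading of both beta-chain genes and counted with neither.

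CSFs are the growth factors of myeloid cells. Granulocyte CSF acts through Csf3r, a receptor of neutrophils and their precursors. Macrophage CSF, the product of Csf1, acts through Csf1r, a receptor tyrosine kinase of monocytes and macrophages on which their survival depends. Granulocyte-macrophage CSF binds the alpha chain Csf2ra, which signals with the beta chain Csf2rb that the receptors for interleukin 3 and interleukin 5 also use. Mice carry a further beta chain, Csf2rb2, which serves the interleukin 3 receptor alone. On assembly GRCm38.p6 the beta-chain genes lie next to each other, with 0 protein-coding genes between them.

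Total RNA came from peritoneal cells of wild-type (+/+) mice and of mice deficient (-/-) for C/EBPε, the transcription factor of late granulocyte maturation that Cebpe encodes. Both genotypes had the mixed background 129/SvEv x NIH Black Swiss. The labels name 4 animals for each group at an age between 6 and 8 weeks. They were given 2 ml of 4% thioglycollate broth intraperitoneally, a sterile irritant that recruits neutrophils and then monocytes, and were lavaged 24 h later. Whether RNA was pooled across animals is not given in the part of the labels used here. By cytospin counts of 100 to 200 cells, neutrophils made up about 60% of the cells of each genotype, monocytes 30% and lymphocytes 7 to 10%. Each genotype had 1 array of each type. The types carry different probe sets and are not replicates, so no difference below has a replicate check, and no test or p-value is given. The signal of Cebpe itself was not analysed here.

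Signals are array intensities. Within each type both arrays were brought to the same trimmed mean, and the floor was the median of their scaled values, 1036.5 on A and 690.2 on B. Probe sets that exceeded this floor in both genotypes are called measured and have a log2 ratio of deficient to wild-type signal. Where the floor was exceeded in 1 genotype, the ratio was computed against the floor and is a bound. Genes with more than 1 probe set gave an SD of 0.38 for a log2 ratio (424 genes) and 0.53 for the difference of 2 ratios. This error holds no spread between mice, between RNA preparations or between repeat arrays. Csf1r rests on type B, whose deficient array is labelled as such in its title but not in its RNA source field. Over 163 genes measured on both types the ratios of A and B had Pearson's r = 0.57 and Spearman's rho = 0.54 across genes, which are not independent replicates, and 111 genes had the same sign. A difference in cell number cannot be told apart from a difference in RNA per cell.

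The promoters are shown first, since the factor removed is a DNA-binding protein and the members differed in direction. Windows for Csf1, Csf2ra, Csf2rb2 and Csf3r were taken from the RefSeq promoter table (GRCm38.p6). The members' search did not take in every chromosome, and Csf1r and Csf2rb have no window here. The 250 bases before the start are printed for Csf3r, the receptor with lower signal in deficient cells, and for Csf2rb2, the receptor with the highest ratio. Capitals mark the C/EBP core GCAAT and the ETS purine box GAGGAA, the form bound by PU.1 and its relatives, on either strand. The Csf3r window is chr4:126024409-126024658 on the plus strand and that of Csf2rb2 is chr15:78305722-78305971 on the minus strand.
Csf3r: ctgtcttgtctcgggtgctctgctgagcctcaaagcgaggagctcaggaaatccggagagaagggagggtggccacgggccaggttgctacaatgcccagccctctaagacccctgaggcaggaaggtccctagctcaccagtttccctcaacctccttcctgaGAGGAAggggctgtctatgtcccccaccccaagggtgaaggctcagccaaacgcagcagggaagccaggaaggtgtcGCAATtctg
Csf2rb2: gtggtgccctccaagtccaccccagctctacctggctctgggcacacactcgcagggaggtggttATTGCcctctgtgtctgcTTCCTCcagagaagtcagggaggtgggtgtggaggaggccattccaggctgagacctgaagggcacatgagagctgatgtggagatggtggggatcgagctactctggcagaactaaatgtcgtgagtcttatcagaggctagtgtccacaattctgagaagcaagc

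The Csf3r window held GCAAT beginning 9 bases before the start and GAGGAA beginning 86 bases before it. The Csf2rb2 window held both on the opposite strand, at 185 and 167 bases before the start. Of 32851 promoters in the table, 23.1% held GCAAT and 23.3% held GAGGAA within the same 250 bases. GCAAT was searched after the sequences had been read. The longer C/EBP form TTGCNNAA, which can overlap GCAAT, was in none of the 4 members' windows and in 9.56% of all. Csf2ra held GAGGAA at 14 and again at 8 bases before its start and no GCAAT, and Csf1 held neither. CCAAT and the RUNX form TGTGGT were in none of the 4 and in 33.9% and 14.0% of all promoters. GCAAT was thus in 1 member with lower and 1 with higher signal in deficient cells. These are matches of letters only.

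Csf3r, the granulocyte receptor, had lower signal in deficient cells, while Csf1r, Csf2ra and Csf2rb2 had higher signal. Csf1 exceeded the floor in wild-type but not in deficient cells. Csf3r was 2.48-fold lower and Csf2rb2 2.19-fold higher. Csf1r was 1.79-fold and Csf2ra 1.55-fold higher, each under 2-fold.

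**Figure D1:**
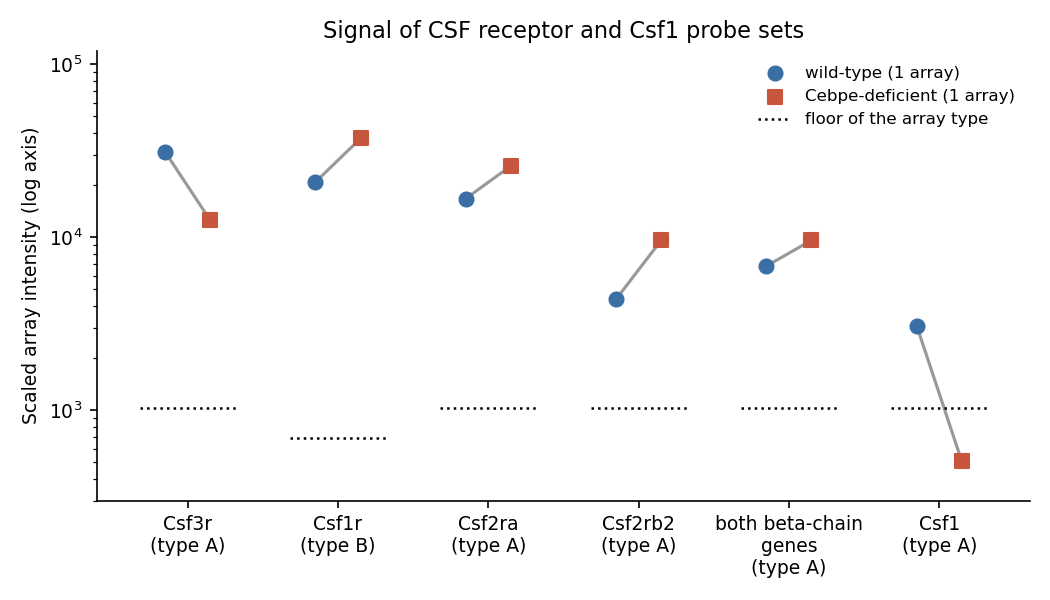
Scaled array intensity (log axis) of each member's probe set and of the probe set of both beta-chain genes, in wild-type (circles) and deficient (squares) cells, 1 array each; dotted lines are the floor of the array type. Csf3r goes from 31169.6 to 12562.9, the other receptors lie higher in deficient cells, and Csf1 goes from above to below the floor.

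On type A the wild-type reading of Csf3r was 31162 and the deficient one 12566, a log2 ratio of -1.31. Both readings were far above the floor, at 30.1 and 12.1 times its level. Of 2949 measured probe sets of type A, 93 (3.15%) were lower by 2-fold or more. Csf3r was the 1 lower among the 3 receptor members measured on A. Its ratio was in the lowest 1.32% of type A, and in the lowest 1.28% of the 1170 probe sets at 5 or more times the floor. Over the scalings and floors tried it stayed between -1.32 and -1.11.

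Markers of neutrophils, the cells that carry Csf3r, were lower as well. All 7 measured of 16 listed were below 0, with a median log2 ratio of -0.62 against 0.01 over all 3132 measured genes. Of those 3132 genes, 1594 were above 0 and 1538 below, the split against which each list is read. Of the 7 markers, 3 were lower by 2-fold or more, where 3.67% of all genes were. Another 2 exceeded the floor in wild-type cells alone, and the median lay between -1.44 and -0.27 over the settings tried. The defining markers differed in size. Ly6g, a surface antigen of mature neutrophils, read 3921 and 1449, and Cxcr2, their chemokine receptor, went from 2120 to a reading of 571 below the floor. S100a8, an abundant calcium-binding protein of neutrophils, read 66423 and 62899, a log2 ratio of -0.08. S100a8 was the highest of the measured markers and Il1r2 the lowest, at -2.40. The summed signal of the list went from 105281 to 92649 on A and from 66759 to 41770 on B. The list includes granule protein genes such as Ngp, at -1.57, and Lcn2, at -0.52. C/EBPε acts in late granulocyte maturation, so such markers do not stand for neutrophil number alone. The part of neutrophil number or maturity in the Csf3r difference was not tested.

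Csf1r, the macrophage receptor, had a wild-type reading of 20858 and a deficient one of 37383 on type B, a log2 ratio of 0.84. These readings were 30.3 and 54.1 times the floor. It was under the 2-fold line that 4.23% of type B probe sets reached in this direction (3.76% reached it in the other), and 7.08% of them had a ratio as high. Among the 1497 at 5 or more times the floor this share was 6.28%. Scaling to the bacterial hybridisation controls, which moved the median of all type B ratios to 0.36, took it to 1.19, past 2-fold, and equal medians took it to 0.67.

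Most macrophage markers did not share this direction. Of 20 listed monocyte and macrophage markers, 15 were measured, 10 below 0 and 5 above, with a median of -0.43. Adgre1, an adhesion receptor of macrophages, read 40784 and 28475, Cd14, the lipopolysaccharide co-receptor, 84127 and 41219, and the lysosomal Cd68 41539 and 50831. The ends of the list were Mrc1, the mannose receptor, at -2.30 and the apolipoprotein gene Apoe at 2.21. Besides Cd68 and Apoe, those above 0 were Ccr2 at 0.97, Mpeg1 at 0.66 and Ctss at 0.17, against the 10 below. Summed signal was 201207 and 204495 on A and 360011 and 312462 on B. All 7 measured resident peritoneal macrophage markers were below 0 (median -0.69). Among their defining markers, the transcription factor gene Gata6 stood at -0.79 and the adhesion gene Icam2 at -0.40, and Timd4 was not analysed here. The highest was Icam2 and the lowest Serpinb2, which inhibits urokinase, at -1.68, and the summed signal went from 53435 to 34492 on A and from 34025 to 17585 on B. Csf1r was thus higher while most of these markers were lower, and the part of macrophage make-up in its ratio was not tested.

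Csf1, the ligand of Csf1r, went from a wild-type reading of 3080 to a deficient one of 506, the latter below the floor of type A. The difference was therefore a bound, at least 2.97-fold lower. Of the 345 type A probe sets that exceeded the floor in wild-type cells alone, 15.1% had a bound of 2-fold or more. The size depended on the floor. With the floor at the 30th percentile Csf1 was measured on both arrays with a log2 ratio of -2.61. At the 70th percentile the bound was -0.27, under 2-fold, and with the floor added to both values it was -0.99. Stromal cells are a known source of Csf1. All 6 measured of 12 mesothelial and fibroblast markers were below 0 (median -0.38), with Col3a1, a fibrillar collagen, at -1.70 and the receptor gene Pdgfrb at -0.12, while the defining mesothelial markers Msln, Upk3b and Krt19 were below the floor in both genotypes. By its other probe set, on A, Col3a1 was below the floor in both genotypes. The summed signal of the listed markers went from 3507 to 2722 on A and from 17570 to 9006 on B. Their part in the Csf1 reading was not tested.

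Csf2ra, the alpha chain of the granulocyte-macrophage CSF receptor, read 16752 and 25902 on type A, a log2 ratio of 0.63. Its readings were 16.2 and 25.0 times the floor. A ratio as high was found in 9.70% of type A probe sets and in 10.3% of the brighter ones. Over the settings tried it lay between 0.60 and 0.83 and did not reach 2-fold.

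Csf2rb2, the interleukin 3 beta chain, read 4389 and 9614 on type A, a log2 ratio of 1.13. It was the 1 receptor member of the 3 on A that was higher by 2-fold or more, where 2.54% of all measured probe sets of the type were. A ratio as high was found in 1.63% of them, and in 2.22% of the brighter ones. With the floor added to both values it was 0.97, just under 2-fold. The probe set annotated to both beta-chain genes read 6824 and 9614, a log2 ratio of 0.49 that 14.2% of type A probe sets matched or exceeded. Both probe sets had the identical reading of 9614 in deficient cells, which no other type A probe set had, and differed in wild-type cells. Each beta-chain reading was higher in deficient cells, by sizes that differed. The beta-chain genes are close paralogs, so their probe sets may share signal, and the level of Csf2rb cannot be read from them.

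**Figure D2:**
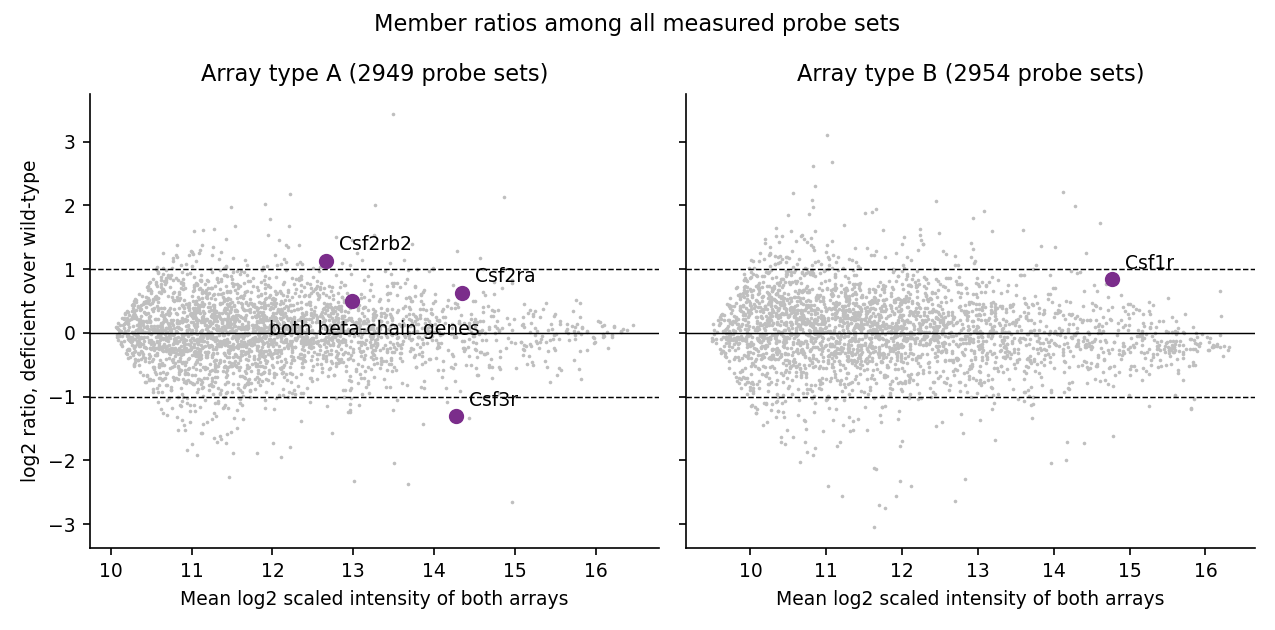
log2 ratio (deficient over wild-type) against mean log2 scaled intensity for every measured probe set, array type A on the left and B on the right; dashed lines mark 2-fold. Csf3r at -1.31 lies below the lower line, Csf2rb2 at 1.13 above the upper one, and Csf1r at 0.84 and Csf2ra at 0.63 between them.

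The granulocyte receptor differed from each of the other receptors by more than the SD of a difference, which comes from repeat probe sets and not from repeat arrays. Of the 6 pairs of receptors compared, the log2 ratio of Csf3r was 2.44 below that of Csf2rb2 and 1.94 below that of Csf2ra, against an SD of 0.53 for a difference. These comparisons lie within the same 2 arrays, and no linear scaling can change them. The difference of Csf3r minus Csf1r was -2.15 and lay between -2.30 and -1.92 over the settings tried, but Csf1r was normalised separately, on the other array type. The other receptors did not separate. Csf2rb2 stood 0.50 above Csf2ra and 0.29 above Csf1r, and Csf1r stood 0.21 above Csf2ra, each less than the SD of a difference. With equal medians the order of Csf1r and Csf2ra turned (-0.022). The pairs share arrays and members, so these differences are not independent.

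**Figure D3:**
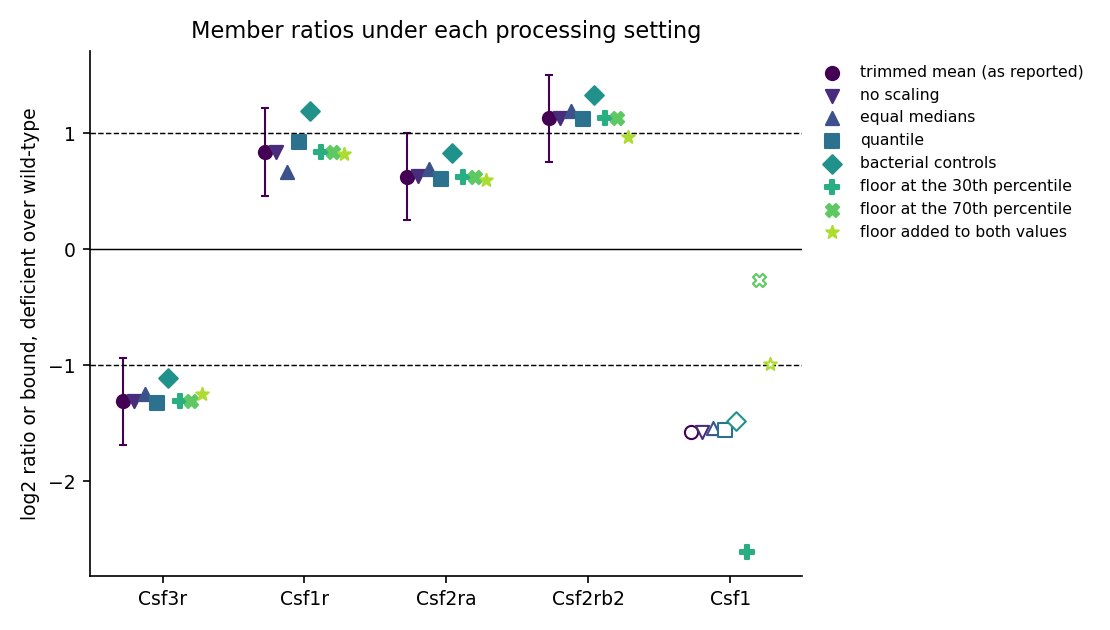
log2 ratio, deficient over wild-type, of each member under 8 processing settings (filled symbols), or bound against the floor (open symbols); the bar on the reported value is 1 SD of repeat probe sets, 0.38, and dashed lines mark 2-fold. Csf3r stays below 0 and Csf1r, Csf2ra and Csf2rb2 above 0 in each setting, whereas Csf1 ranges from -2.61 to -0.27 with the floor.

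Among the other ligands, few were above the floor. Csf3, which encodes granulocyte CSF, read 4364 and 3939, a log2 ratio of -0.15. The ligand of Csf3r thus differed by less than the SD of a ratio from repeat probe sets, while its receptor was lower. Csf2, the ligand of Csf2ra, was below the floor in both genotypes by both of its probe sets. Il5 was below the floor in both as well. Il3 read 681 and 1549 on type B, just under and above the floor, a bound of at least 2.24-fold higher. A bound of 2-fold or more was found in 28.4% of the 384 type B probe sets above the floor in deficient cells alone. The dendritic cell growth factor gene Flt3l stood at 0.20. Of 13 ligands listed, 9 had a probe set, 2 were measured, 2 were above the floor in deficient cells alone and 5 were below it in both.

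Unlike Csf2ra, the alpha chains of the interleukin 3 and interleukin 5 receptors gave no signal above the floor. Il3ra read -3213 and -4690 on B, and Il5ra, the interleukin 5 receptor of eosinophils, -121 and -151 on A. Of 25 related receptor chains, 21 had a probe set and 10 were measured, 6 above 0 and 4 below (median 0.25). Higher by 2-fold or more were 2 of them, against 3.03% of all measured genes, and none of the 10 was lower by that size. Ifngr1, the ligand-binding chain for interferon gamma, read 4894 and 13382 (2.73-fold), and Il10ra, the interleukin 10 receptor chain, 2947 and 6140 (2.08-fold). The lowest was the interleukin 4 receptor chain Il4ra at -0.97.

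Genes that carry the signal inward were counted against the same background, in which 3.03% of all measured genes passed 2-fold upward and 3.67% downward. Of all measured genes, 1594 were above 0 and 1538 below. Of 14 measured JAK, STAT and feedback genes (28 listed), 10 were above 0 and 4 below (median 0.10). By the probe sets that stood for them, only the kinase gene Jak3 was past 2-fold, at 3.94-fold higher (1443 and 5687). Bcl2l1 was counted at 0.65 by a probe set on B. By its probe set on A it read 1391 and 3614, a log2 ratio of 1.38 and so past 2-fold. Jak2, the kinase that the beta chain uses, was the lowest at -0.80 by its brightest probe set, and its other measured probe sets read -0.17 and 0.12. Stat5a and Stat5b, main targets of the beta chain, stood at 0.03 and 0.12, and Stat3 and its feedback inhibitor Socs3, both linked to Csf3r, at 0.30 and -0.44. By its other probe set Stat3 stood at 0.88. Of 17 measured kinases and adaptors (37 listed), 11 were above 0 and 6 below (median 0.34), and none reached 2-fold. Cbl, the ubiquitin ligase that removes activated Csf1r, was the highest at 0.85 and the kinase gene Syk the lowest at -0.25.

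Of 22 transcription factors known to act in myeloid cells, many of them on CSF receptor genes, 13 were measured and 3 had a bound. Of the measured ones, 7 were above 0 and 6 below (median 0.14). Spi1, which encodes PU.1 and activates Csf1r and Csf3r, read 19165 and 21283, a log2 ratio of 0.15. Klf4 at 0.46 and Cebpd at -0.38 were the ends of the range. Egr2 exceeded the floor in wild-type cells alone, at least 5.73-fold lower, where 27.4% of the 248 such type B probe sets had a bound of 2-fold or more. Myb exceeded the floor in deficient cells alone by 1 probe set of type B, with a wild-type reading of -76 and a bound of at least 2.32-fold higher, where 28.4% of such type B probe sets had a bound of that kind. Its other probe set, on A, read 60 and 110, below the floor in both genotypes. Cebpg, also above the floor in deficient cells alone, had a bound of at least 1.97-fold higher.

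**Figure D4:**
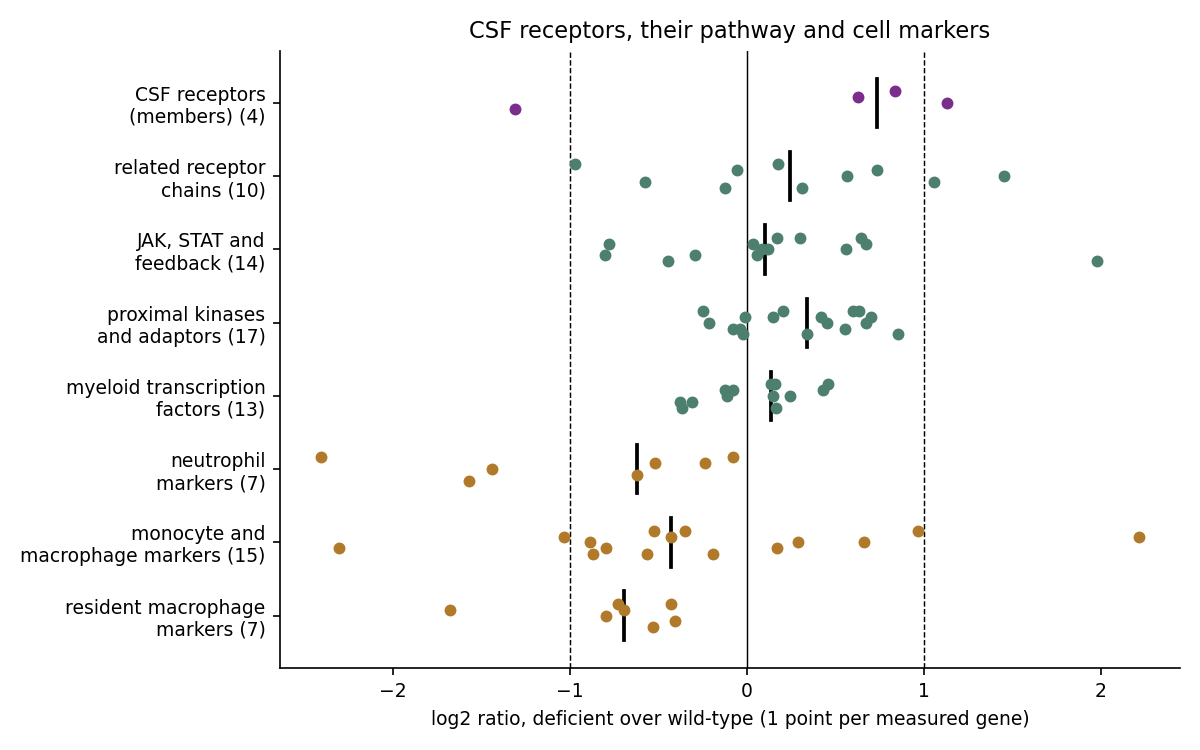
log2 ratio, deficient over wild-type, of each gene measured on both arrays (points) in the CSF receptors, pathway lists and myeloid marker lists; the number measured stands in brackets, the black bar is the list's median and dashed lines mark 2-fold. Csf3r lies below 0, as do all measured neutrophil markers (median -0.62) and all measured resident macrophage markers (median -0.69). Most monocyte and macrophage markers (median -0.43) lie below 0 too, and the other CSF receptors lie above 0.

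Other cells that use these receptors or could carry them were checked. Among eosinophil markers, which accompany the shared beta chain, Prg2 and Epx were below the floor in both genotypes and Prg3 was not analysed here. Of 9 listed, 2 were measured, the receptor gene Ccr3 at -1.92 and the lipoxygenase gene Alox15 at -0.73, which resident macrophages also express. Summed signal, from Alox15 alone, went from 13664 to 8260 on A and, from Ccr3 alone, from 3542 to 935 on B. The beta-chain readings were higher while these 2 genes were lower. Of 11 mast cell and basophil markers 5 were measured (median -0.14, and 0.07 with scaling to the bacterial controls), between Kit at -0.58 and the protease gene Mcpt4 at 0.65. By its other probe sets Mcpt4 was below the floor in both genotypes. The defining Cpa3 read 377 and 1583, above the floor in deficient cells alone, and Tpsb2 stood at -0.14. Hdc (1217 and -347) and, by its brighter probe set, Ms4a2 (1334 and 665) were above the floor in wild-type cells alone. Summed signal was 11317 and 10216 on A and 4843 and 3683 on B. Of 9 dendritic cell markers 3 were measured, Zbtb46 at 0.92, Batf3 at 0.58 by its brighter probe set and Fscn1 at -1.18. The other probe set of Batf3 stood at -0.23. Flt3 was above the floor in deficient cells alone by its probe set on B, and below it in both genotypes by that on A. Ccr7 went the other way, above the floor in wild-type cells alone (1507 and 861). Itgax was not analysed here. Summed signal was 10550 and 10819 on A and, from Flt3 alone, 252 and 992 on B. B cell markers had a median of -0.11 over 5 measured genes (0.09 with scaling to the bacterial controls), between Ighm at -0.50 and Cr2 at 0.68. By its other probe sets Cr2 was below the floor in both genotypes. Cd79a and Cd79b stood at -0.37 and -0.11, and summed signal was 42772 and 36294 on A and 12348 and 10132 on B. None of 10 T and NK cell markers was measured on both arrays. Cd3d and Cd3g were below the floor in both genotypes, and Cd3e read 1901 and 921. The part of these cells in the receptor readings was not tested.

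The genes whose pair of signals lay nearest to each receptor were taken as its closest neighbours, by distance of log2 signal over the 2 arrays of the type. With 2 arrays this says only that both readings were alike. For Csf3r, among 2346 genes of type A, these were Il1rn, the interleukin 1 receptor antagonist, with a log2 ratio of -1.34 (distance 0.23), Marcksl1 at -1.08 (0.24) and the lipase gene Lpl at -0.91 (0.29). For Csf2rb2 they were Plbd1 at 1.04 (0.12), Nfe2l2, which encodes the antioxidant regulator NRF2, at 0.98 (0.17) and Gamt at 0.90 (0.24). For Csf2ra they were Ppp2r5a at 0.46 (0.15), Rab31 at 0.47 (0.16) and Gnai2 at 0.41 (0.17). For Csf1r, among 947 genes of type B, they were the endocytic receptor gene Lrp1 at 0.60 (0.24), the integrin gene Itgb1 at 0.41 (0.37) and Capg, an actin-capping protein, at 0.46 (0.40).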

How the data were processed

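As deposited, each probe set has an intensity in linear units, a whole number that was below 0 for 20.6% to 29.3% of probe sets. How the authors corrected and scaled it is not given in the sources used here. Groups came from the sample titles. Probe sets were named from the platform annotation (7542 with 1 symbol), and all 6 member symbols matched RefSeq on GRCm38.p6. Scaling within a type used the mean over non-control probe sets, less 2% at each end (factors 0.999 to 1.001). Where a gene had repeats, the brightest measured probe set (relative to the floor) stood for it. The number of arrays limits the precision. Alternatives were no scaling, equal medians, quantile and bacterial-control scaling, floors at the 30th and 70th percentile or added to both values, 3-fold, and no suffixed probe sets. Ratios were tested on simulated data. Genes named outside the members were the first 3 of each marker list and the ends of each list. Also named were those past 2-fold in pathway lists and the 3 nearest neighbours. Jak2, Stat3, Stat5a, Stat5b, Socs3, Csf2, Il5, Il3ra, Il5ra, Cebpg, Ngp, Lcn2, Ccr2, Mpeg1 and Ctss were chosen after their values were seen. So were Spi1, Batf3, Bcl2l1, Shc1, Ccr7, Hdc and Ms4a2. Members and lists were chosen with earlier results of these data known. Python 3.11.15, numpy 2.4.6, pandas 2.3.3 and matplotlib 3.10.9 were used.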

Additional observations from a re-analysis of the deposited data

How the results depend on the processing

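The directions of Csf3r, Csf1r, Csf2ra and Csf2rb2 and of each pair with Csf3r held under every scaling and floor tried. Both readings of these receptors exceeded every floor, so no floor percentile could change their ratios, and adding the floor cannot turn a direction. No linear scaling could change Csf3r minus Csf2ra or Csf3r minus Csf2rb2. For these the stability was fixed by the method. The difference of Csf1r minus Csf2ra turned to -0.022 with equal medians. The bound of Csf1 became a ratio of -2.61 with the floor at the 30th percentile, and was -0.27 at the 70th and -0.99 with the floor added to both values. Counts of probe sets past 2-fold, against which members are read, were 75 higher and 93 lower on A and 125 and 111 on B. Scaling to bacterial controls gave 154 and 55 on A and 334 and 55 on B, with the median of all ratios at 0.21 and 0.36. Equal medians gave 170 lower on B. The floor at the 30th percentile gave 217 and 266 on A and 443 and 364 on B, and at the 70th 35 and 26 on A and 41 and 41 on B, as more or fewer dim probe sets were measured. At 3-fold there were 12 and 18 on A and 26 and 31 on B, and without suffixed probe sets, which include every member's, 15 and 13 on A and 20 and 19 on B. Medians kept their sign for all lists with 4 or more measured genes except B cell and mast cell markers (0.09 and 0.07 with bacterial-control scaling), and ranged from -0.52 to -0.17 for monocyte and macrophage markers, 0.18 to 0.45 for related receptor chains, 0.05 to 0.33 for JAK and STAT genes, 0.21 to 0.62 for proximal kinases, 0.03 to 0.31 for transcription factors and -0.82 to -0.38 for mesothelial markers. No paired analysis was possible because each genotype had 1 array of each type. Precision is limited by this number and, for Csf1, by signal near the floor.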
